A study of Mus musculus with 26 samples.

Results

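The imprinted domain that holds Peg3 and Usp29 on mouse chromosome 7 was followed in sperm of males transplanted with cultured spermatogonial stem cells (SSCT) and in the sperm of their offspring. Its members were all cytosines of CpGs inside the RefSeq spans of Peg3 (chr7:6703892-6730462, GRCm38) and Usp29 (chr7:6730559-6967220) or within 2000 bp of them that had at least 10 reads in a library. There were 222 such positions of 2626470 in the whole series. They fell into the shared promoter island (chr7:6727000-6732000) with 34 positions, the Peg3 body with 19 and the Usp29 body with 169. The members were chosen by place and read coverage, and the choice of the domain was made with results of these data in view.

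Peg3, paternally expressed gene 3, encodes a zinc finger protein that binds DNA, and Usp29 encodes a ubiquitin-specific protease. Both genes are read in opposite directions from 1 promoter region and are expressed from the paternal copy. The promoter is methylated on the maternal copy, where the mark is set in the oocyte, and it is unmethylated in normal sperm. The neighbouring Zim1 and Zim2 belong to the same imprinted cluster.

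Reduced-representation bisulfite sequencing (RRBS), which reads the CpG-rich fragments left by the enzyme MspI, was applied to cauda epididymal sperm. The SSCT F0 group held sperm of 3 sterile W/W-v males that carried DBA/2J spermatogonial stem cells after long-term culture, and the control F0 group sperm of 3 DBA/2J males, all at 16 to 18 months of age. The offspring formed 4 sets of 5 males, read at 3 months of age, namely control F1, SSCT F1 (sons of transplanted males and DBA/2J females), SSCT F2/M (through an SSCT F1 mother) and SSCT F2/P (through an SSCT F1 father). W/W-v males lack germ cells of their own, and the study describes their sperm as donor-derived. The labels do not give the stem cell line behind each male. The gene table used here gives spans only, so exons and introns were not told apart.

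The titles of the 4 offspring sets were at odds with the names that the study's clustering heat map gives the same libraries. Of 29 mean coverages listed in the study's supplement for control F1 at positions it followed, 0 equalled those of the libraries titled control F1 and 25 equalled those of the libraries that the heat map calls control F1, which are titled SSCT F2/M, within 0.06 reads. Exchanging F2/M and F2/P in the heat map names gave 5 of 7 equal coverages for F2/M and 5 of 8 for F2/P, against 2 and 1 without the exchange. The treatment label reads WT for the libraries titled control F1 and also for those titled SSCT F2/M, and SSCT for the other offspring sets. Under the heat map names with that exchange, 714746 positions could be tested for SSCT F1, 504820 for F2 pooled, 609376 for F2/M and 664292 for F2/P, and under the titles 597327, 569824, 664292 and 695138 in the same order. In each of these comparisons the number of CpGs the study lists nearly equals the number under the exchanged heat map names. The number under the titles lies far from it. By these counts the titled sets are probably not the sets the study compared. The titles are used below as the group names, so every offspring comparison is one between titled sets and not necessarily between the sets the study compared, and values under the heat map names are given beside the calls. The F0 groups carry the same names in both.

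SSCT F0 replicates 2 and 3 stood apart in coverage, and the protocol gives a lower DNA input for all 3 SSCT F0 libraries. SSCT F0 replicates 1, 2 and 3 listed 1977100, 1123580 and 305964 CpG positions, against 1995496 to 2232483 in the other 23 libraries. Their median coverage over positions with 10 reads was 26, 41 and 392. In the domain they held 127, 67 and 12 covered positions, while the other libraries held 107 to 149. Reads at CpG positions numbered 45616751 to 87707577 per library. The reads carry no molecular identifiers, so intervals and limits given below cover counting error only.

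The sequences around the start sites show where the measured cytosines lie. RefSeq (GRCm38.p6) places the Peg3 start at chr7:6730419 on the minus strand and the Usp29 start at chr7:6730583 on the plus strand, 164 bp apart. The promoter windows run from 250 bases before to 50 after each start (Peg3 at chr7:6730370-6730669, Usp29 at chr7:6730333-6730632) and share 263 bases read from opposite strands. Capitals mark the CpGs.
Peg3 promoter: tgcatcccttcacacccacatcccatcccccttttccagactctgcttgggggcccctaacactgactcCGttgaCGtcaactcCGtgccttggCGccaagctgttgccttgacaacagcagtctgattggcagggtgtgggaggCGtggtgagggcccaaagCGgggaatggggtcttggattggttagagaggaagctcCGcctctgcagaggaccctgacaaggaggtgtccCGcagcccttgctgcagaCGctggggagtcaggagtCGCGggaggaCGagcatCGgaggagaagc
Usp29 promoter: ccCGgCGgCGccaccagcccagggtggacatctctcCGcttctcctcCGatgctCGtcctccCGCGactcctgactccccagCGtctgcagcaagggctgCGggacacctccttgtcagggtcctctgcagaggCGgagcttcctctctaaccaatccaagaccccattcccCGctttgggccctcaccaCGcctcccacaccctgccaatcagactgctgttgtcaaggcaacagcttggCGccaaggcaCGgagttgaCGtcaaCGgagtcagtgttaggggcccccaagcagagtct
The Peg3 window holds 13 CpGs and the Usp29 window 17, against a median of 7 in 32851 RefSeq promoter windows. MspI cuts at CCGG, which occurs 0 times in the Peg3 window and 1 time in the Usp29 window, at its left end, while 52.8% of all windows hold it. No measured position with 10 reads lay inside either window. The nearest cluster of measured positions ended at chr7:6730328, just beyond that CCGG and 91 bp inside Peg3. The full YY1 binding site and its core GCCAT, which lies inside it, were searched on both strands and did not occur in these windows, while 0.268% and 40.5% of all windows held them.

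Across the domain the methylation followed place. Over positions with 10 reads in at least 5 of the 8 control libraries, 12 of 15 island positions had a mean of 10% or less and none reached 90%. Of 15 positions in the Peg3 body, 6 were at 10% or less and 9 lay between. The Usp29 body, by far the longest part, was a mosaic of 36 positions at 10% or less, 29 between and 29 at 90% or more. In all, 33.1% of the 124 domain positions lay between 10% and 90%, against 12.7% of 1596525 positions of the series.

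**Figure D1:**
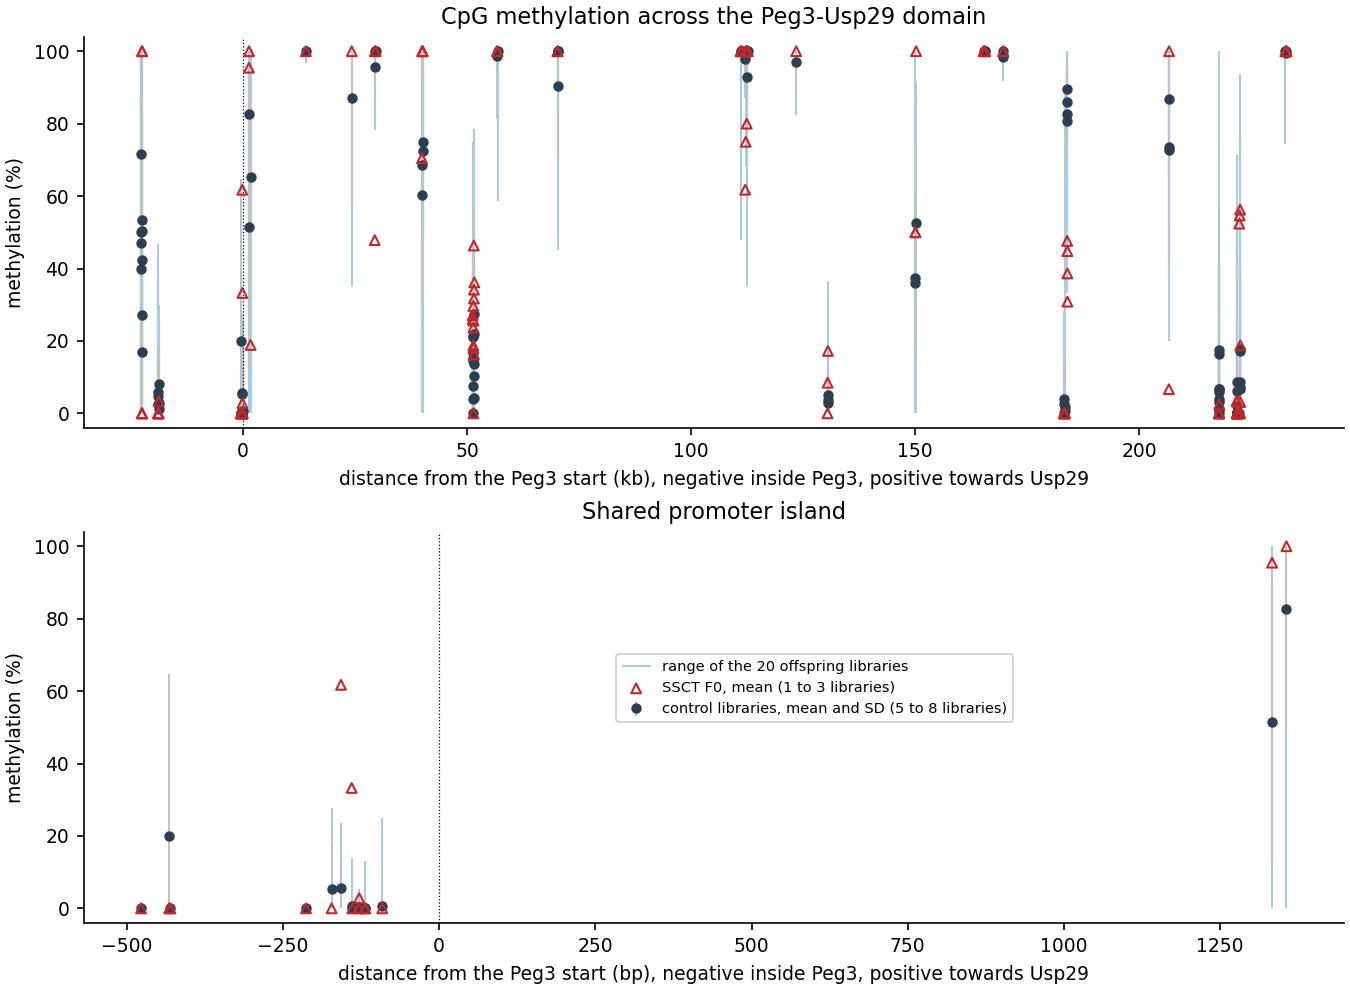
Methylation of CpG cytosines (percent) against the distance from the Peg3 start, over the whole domain (upper panel, kb) and in the shared promoter island (lower panel, bp). Dots are means and bars the SD of the control libraries (F0 and F1), blue lines the range of the 20 offspring libraries, and open triangles SSCT F0 means of 1 to 3 libraries. Most positions close to the Peg3 start lie near 0% in controls, and the pair at 1333 and 1356 bp lies at 51.4% and 82.7%.

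The clusters of the Usp29 body changed level over short distances. Positions up to 300 bp apart were joined into 65 clusters, of which 22 in the Usp29 body were covered in at least 5 control libraries. Of these, 11 were at 90% or more, 4 at 10% or less and 7 between. At chr7:6913652-6913921 the 8 control libraries averaged 2.27% ± 5.42 (SD), and at chr7:6914332-6914428, the next cluster, they averaged 83.4% ± 8.51. The cluster at chr7:6895690 was at 100% in every control library that covered it (n = 5) and in all covered offspring libraries. By contrast, chr7:6781632-6782052 with 18 positions averaged 15% ± 5.65 in controls (n = 8) and ranged from 7.82% to 26.7% in the offspring. In the Peg3 body, the cluster at chr7:6707376-6707908 averaged 40.7% ± 19 in the 8 control libraries and that at chr7:6711467-6711610 averaged 4.05% ± 4.72.

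Single positions show how far the means ranged. In the island the highest mean over control libraries was 82.7% ± 32.9 (n = 7) at chr7:6731775, and the lowest was 0%, which chr7:6730279 (n = 8) shared with others, 8 positions in all. In the Peg3 body they were 71.6% ± 31.2 (n = 5) at chr7:6707691 and 1.14% ± 3.21 (n = 8) at chr7:6711589. In the Usp29 body the highest was 100%, reached at 21 positions, among them chr7:6842626 (n = 8), and the lowest 0%, reached at 12, among them chr7:6952237 (n = 7).

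Positions at intermediate levels varied widely between libraries. Of 41 such positions in the domain, 32 spanned more than 50 percentage points among the offspring libraries. Within control F1, the median Pearson chi-square per degree of freedom was 6.65 over 25 intermediate domain positions, where counting error alone gives 1. It was 6.39 over 112627 intermediate positions of the series, so the spread in the domain was like that elsewhere.

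The shared promoter island was mostly at or near 0% at its centre in control and offspring sperm, with methylation at its Usp29 side. In the promoter cluster (chr7:6729942-6730328, 14 positions inside Peg3), the 8 control libraries averaged 1.32% ± 1.54 and the 20 offspring libraries lay between 0% and 7.28%. The pair of CpGs at chr7:6731752 and chr7:6731775, which lie 1169 and 1192 bp past the Usp29 start, was different. The first ranged from 0% to 100% in the 17 offspring libraries that covered it, with a median of 100%, and the second had the same range and median. Outside SSCT F0, 4 libraries covered neither CpG of the pair, and their share of methylated reads over the whole island was 0.270% to 4.53%.

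Sperm identity was read from other imprinted loci. The H19 upstream region, methylated on the paternal copy, had 93.0% to 100% methylated reads in the 20 offspring libraries and averaged 98.7% ± 2.27 in control F0 (n = 3). Of 13 maternally methylated promoters with measured positions, 12 had an offspring median of 5% or less, among them Snrpn with 1.78%, Mest with 3.14%, Peg10 with 1.5%, Plagl1 with 1.92%, Grb10 with 2.20%, Nnat with 1.75% and Kcnq1ot1 with 0%. The exception was Slc38a4, with 40.7% over windows around all its RefSeq starts. The Peg3-Usp29 promoter cluster, at 0% to 7.28% in the offspring, lay at a like level. Zim1, the domain's neighbour, had an offspring median of 0% (highest 6.06%), and Zim2 had no measured position. Zim3, which overlaps the far end of Usp29, shared 6 of the measured positions. Among the other paternally methylated genes, windows around the gene starts held 20.9% at Meg3, 1.32% at Dlk1 and 0.727% at Rasgrf1 as offspring medians. Unlike for H19, only the surroundings of the start were read for these genes. Their values therefore do not show whether a paternal mark lies elsewhere.

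**Figure D2:**
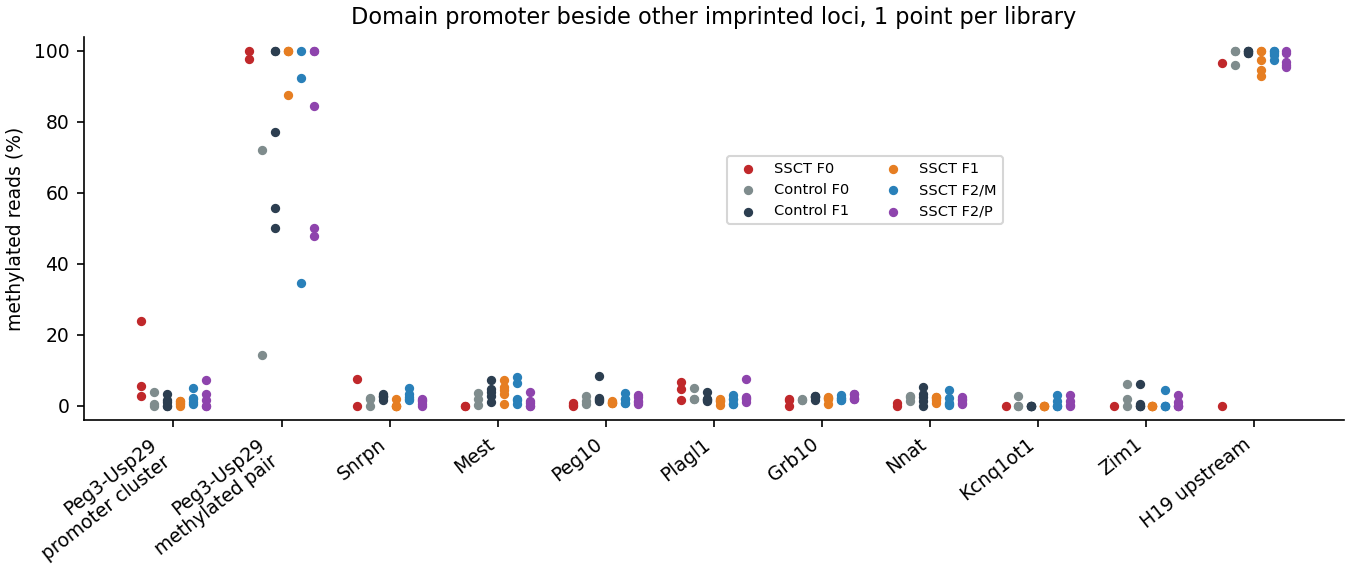
Share of methylated reads (percent, vertical axis) in the promoter cluster and the methylated pair of the Peg3-Usp29 island and at 9 other imprinted loci, 1 point per library, coloured by group. The promoter cluster lies near 0% with the maternally methylated loci except for SSCT F0 replicate 3 at 24.0%, and the H19 upstream region lies between 93.0% and 100% except for 1 SSCT F0 library at 0%.

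In the founders, the low H19 value belonged to SSCT F0 replicate 2, which had 1 covered position there at 0%, while SSCT F0 replicate 1 had 96.5% over 5 positions.

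The comparison of SSCT F0 with control F0 asks whether the donor-derived sperm differs from sperm of untreated males. Host strain differed between these groups along with culture and transplantation, so their parts cannot be told apart here. At the promoter, SSCT F0 sperm was more methylated at chr7:6730262, a cytosine of the plus strand 157 bp inside Peg3. It had 11 of 43 reads methylated in SSCT F0 replicate 1 (25.6%, exact Clopper-Pearson 95% interval 13.5% to 41.2%). It had 31 of 52 in replicate 2 (59.6%, interval 45.1% to 73.0%) and 374 of 374 in replicate 3 (100%, interval 99.0% to 100%). Control F0 had 2 of 82 (2.44%), 0 of 96 and 0 of 43. All 3 SSCT F0 libraries lay above all 3 controls, and above the highest of the 20 offspring libraries, which was 23.6%. The read-weighted difference was 87.8 points, and the exact permutation test over libraries gave p = 0.1 (two-sided), the smallest that 3 against 3 allows. Single raised cytosines of this cluster also occurred in controls. At chr7:6729987 1 control F0 library was at 100%, and at chr7:6730247 the highest control F1 library was at 27.3%.

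Its neighbours on the same strand did not share the pattern. At chr7:6730279, 140 bp inside Peg3, 379 of 380 reads of SSCT F0 replicate 3 were methylated (99.7%), while replicates 1 and 2 had 0 of 43 and 0 of 52, and the 3 controls had 0%. With the limit set at 3 counts, in place of the interval used above, a count of 0 allows a share of up to 6.98% and 5.77% in these 2 replicates. The read-weighted difference of 79.8 points therefore rested on 1 library, and the exact p over libraries was 1. At chr7:6730290 and chr7:6730300 all 3 SSCT F0 libraries and all 3 controls were at 0%.

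The strands differed at this CpG where both could be read. The opposite cytosine of the first CpG, chr7:6730263, had 0 of 812 methylated reads in that library, which allows a share of up to 0.369%, against 374 of 374 on the plus strand. In SSCT F0 replicates 1 and 2 that opposite cytosine had under 10 reads. The only other library with 10 reads on both strands of this CpG, SSCT F2/P replicate 2, differed the other way, with 0% of 45 reads on the plus strand and 100% of 10 on the minus strand.

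**Figure D3:**
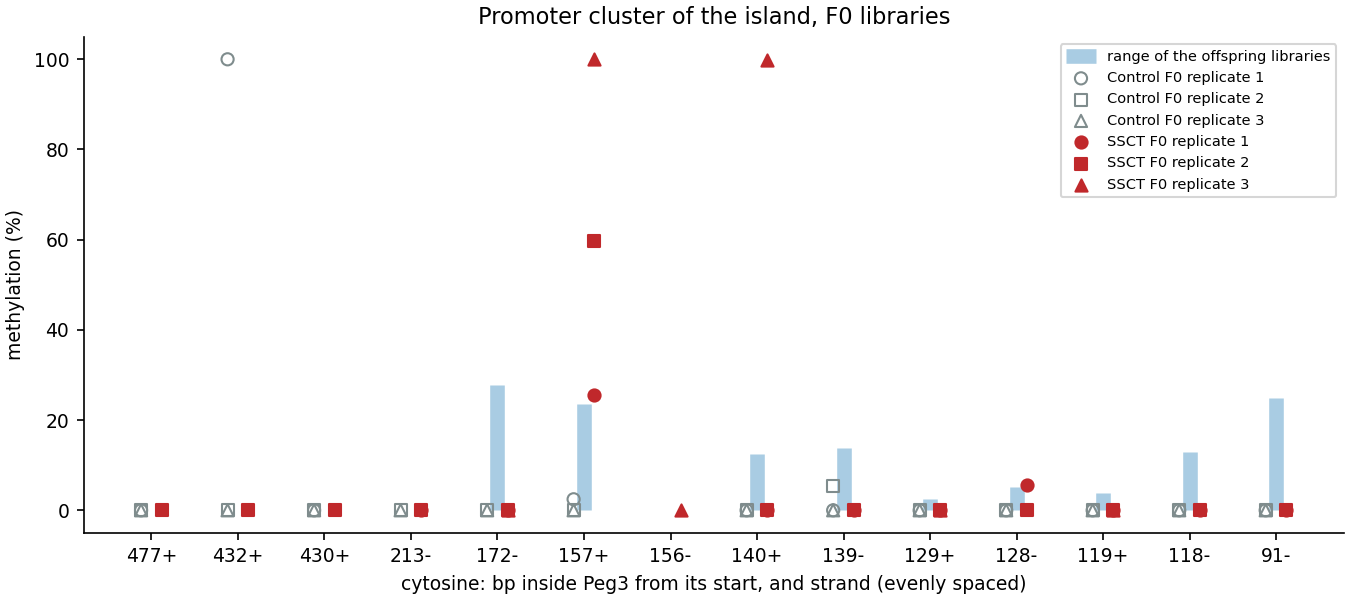
Methylation (percent) of the 14 cytosines of the promoter cluster in the 6 F0 libraries, ordered by their distance inside Peg3 from its start with the strand, evenly spaced. Filled symbols are SSCT F0, open symbols control F0 and blue bars the range of the offspring libraries; at 157 bp on the plus strand SSCT F0 lies at 25.6%, 59.6% and 100%, at 140 bp only SSCT F0 replicate 3 is raised, and the other cytosines of SSCT F0 are at or near 0%.

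A differentially methylated cytosine (DMC) was called at an adjusted p below 0.01 (logistic likelihood-ratio test over pooled reads, Benjamini-Hochberg) and a read-weighted difference above 25 points, and a differentially methylated region (DMR) by the same rule on 1000-bp windows. With 10 reads asked in all 6 F0 libraries, 7 domain positions could be tested, and 2 were called, the cytosines at chr7:6730262 and chr7:6730279. Over all positions 5.83% were called in this comparison. Of 3 windows 1 was called, chr7:6730001-6731000, against 10.0% of all windows. Its 4 tested positions averaged 23.7% ± 23.0 in SSCT F0 and 0.201% ± 0.349 in control F0 (n = 3 each), with no overlap and an exact permutation p of 0.1. When the test was scaled by the spread between libraries (F test), 0 positions and 0 windows were called at an adjusted p below 0.01, over the domain and over the whole series. At an unadjusted p below 0.05 that test, fitted across all positions, left 1 position, chr7:6730262, with an adjusted p of 0.416 where the exact permutation p was 0.1, and 1 window, with an adjusted p of 0.163.

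Without SSCT F0 replicate 3, more of the domain could be tested. In that fit 11 of 40 positions and 4 of 13 windows were called, against 5.83% of all positions and 10.1% of all windows. The island kept 1 call, chr7:6730262, with 42.6% ± 24.1 in SSCT F0 (n = 2) and 0.813% ± 1.41 in control F0. The promoter window chr7:6730001-6731000 was no longer called, and all 4 windows lay in the Usp29 body. There 4 positions were higher in SSCT F0 and 6 were lower. At chr7:6880644 both SSCT F0 libraries were at 100% (14 of 14 and 25 of 25 reads), and the controls were at 34.4%, 25% and 44.4%. At chr7:6914428 SSCT F0 replicates 1 and 2 were at 61.7% and 0%, and the controls at 92.2%, 95.2% and 69.9%. Replicate 2 was at 0% at all 4 called cytosines between chr7:6914358 and chr7:6914428, where the controls lay between 69.9% and 100%. With 2 against 3 libraries the smallest exact permutation p was 0.1, which was reached at 4 of the 11 positions. The methylated share of all reads was 30.4%, 19.9% and 6.73% in SSCT F0 replicates 1, 2 and 3 and 28.4% to 39.1% in control F0, and the part of coverage and input in these differences was not tested.

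Taken by region, SSCT F0 and control F0 overlapped. In the island the share of methylated reads was 9.00%, 7.72% and 24.0% in SSCT F0 and 8.89%, 1.85% and 0.808% in control F0 (exact permutation p = 0.2). Without the methylated pair the values were 2.38%, 4.75% and 24.0% in SSCT F0 and 3.07%, 1.85% and 0% in control F0. Replicate 1 lay inside the range of the controls, replicate 2 above it and replicate 3 far above it. Replicate 3 covered only 6 island positions, while the other F0 libraries covered 16 to 22. Of these 6, 4 were at 0%, and the other 2 were the called cytosines chr7:6730262 and chr7:6730279. Its island value therefore restates those 2 cytosines. In the Peg3 body SSCT F0 replicates 1 and 2 had 8.40% and 0% over 14 and 6 positions, and replicate 3 had no covered position. Control F0 had 27.9%, 6.87% and 15.5% over 8, 17 and 18 positions (exact p = 0.3). In the Usp29 body SSCT F0 had 45.7%, 39.4% and 36.2% over 96, 45 and 6 positions. Control F0 had 54.1%, 38.3% and 49.6% over 95, 110 and 110 positions (exact p = 0.3). These shares cover unlike sets of positions, and the part of coverage in the differences was not tested. Over positions covered in every library the Usp29 body difference had the opposite sign. No region passed after adjustment over the 15 tests of 3 regions and 5 comparisons, and with 3 against 3 none could reach an exact p below 0.1.

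In the offspring, the comparisons ask whether methylation of the domain differs between sons and grandsons of transplanted males and control F1. All 4 use the same 5 control F1 libraries. The island had 3.87%, 8.18% and 15.4% methylated reads in control F1 as lowest, median and highest. SSCT F1 had 0.270%, 12.2% and 13.6%, SSCT F2/M 1.05%, 5.16% and 9.02%, and SSCT F2/P 1.31%, 9.01% and 9.63%. The groups overlapped throughout, and the differences from control F1 were between -3.64 and 0.845 points with exact permutation p from 0.175 to 0.786. Without the methylated pair the island means were 1.13% ± 1.29 for control F1 and 0.822% ± 0.546 for SSCT F1, against 1.95% ± 1.57 for the F2/M set and 2.16% ± 2.61 for the F2/P set (n = 5 each).

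Among the 15 region tests the Peg3 body gave the smallest p. Control F1 libraries held 14.2%, 18.8%, 22.1%, 23.6% and 34.9% methylated reads, and SSCT F2/M libraries 3.49%, 8.02%, 11.7%, 14% and 19.2%. The difference was -11.4 points (exact permutation p = 0.0317, adjusted p = 0.280 over 15 tests). SSCT F1 averaged 12.2% ± 7.04 against 22.7% ± 7.71 (difference -10.6 points, exact p = 0.0556) and SSCT F2/P 16.9% ± 8.36 (difference -5.85 points, exact p = 0.278). Pooled SSCT F2 differed from control F1 by -8.64 points (exact p = 0.0559). None passed after adjustment. The shares cover unlike sets of positions, from 6 in SSCT F1 replicate 1 to 18 in SSCT F1 replicate 3. Over the 3 positions of chr7:6711001-6712000 covered in every library compared, SSCT F1 averaged 4.20% ± 2.53 and control F1 3.87% ± 6.49. SSCT F2/M averaged 3.37% ± 5.77 and SSCT F2/P 3.53% ± 4.96 there. For SSCT F2/M 5 positions of chr7:6707001-6708000 were covered too, with 19.1% ± 13.8 against 43.2% ± 19.2. Leaving out 1 library at a time or changing a setting moved the unadjusted exact p of SSCT F2/M between 0.0159 and 0.857. Under the heat map names the same libraries exchange places, and the difference of 11.4 points has the opposite sign. A comparison of the 4 sets with each other gave a permutation p of 0.0894 for the Peg3 body, 0.379 for the island and 0.314 for the Usp29 body, with 100000 resamples.

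In the Usp29 body, control F1 libraries held between 41.4% and 51.4% methylated reads. The SSCT F1 libraries lay between 46.9% and 53.3%, those of SSCT F2/M between 47.7% and 58.1%, and those of SSCT F2/P between 45.6% and 54.5%. The differences from control F1 were 3.21 to 4.51 points, with exact permutation p from 0.116 to 0.254 and adjusted p of 0.346 in each.

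**Figure D4:**
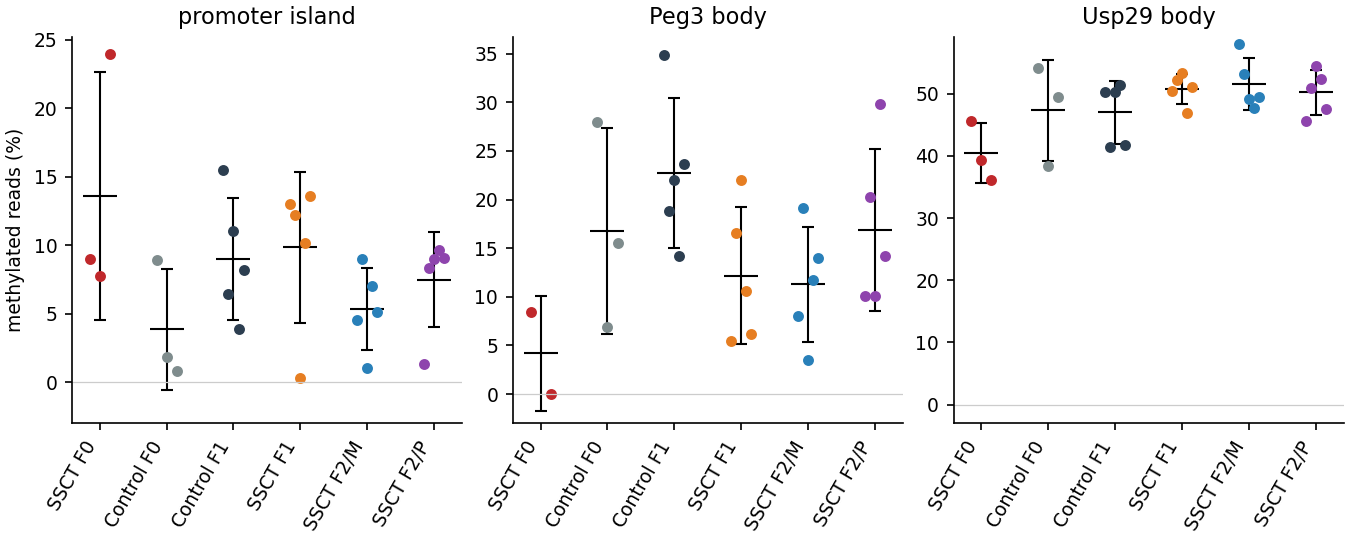
Share of methylated reads (percent, vertical axes with separate scales) per library in the promoter island, the Peg3 body and the Usp29 body. Points are libraries, horizontal lines the mean and bars the SD; the 6 groups overlap in the island, each SSCT group overlaps its control group in the Usp29 body, and in the Peg3 body control F1 (14.2% to 34.9%) overlaps SSCT F2/M (3.49% to 19.2%).

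The SSCT effect was also compared between F0 and F1, with F0 effects that rest on shares over unlike sets of positions. The difference of the effects was 8.87 points in the island (exact permutation p = 0.263), -2.02 points in the Peg3 body (p = 0.879, exact) and -10.7 points in the Usp29 body (p = 0.0940, exact).

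Few single cytosines of the domain were called in the offspring. For SSCT F1, 0 of 49 tested positions were called (0.462% of all positions) and 0 of 16 windows (0.415% of all windows). For pooled SSCT F2 it was 0 of 42 (0.187%) and 0 of 15 windows (0.143%). In these, the F test gave 0 positions of the domain with a difference above 25 points at an unadjusted p below 0.05. SSCT F2/M had 2 of 49 positions called (0.420%) and 0 of 18 windows (0.363%), and SSCT F2/P 2 of 49 (0.430%) and 0 of 19 windows (0.392%). Both pairs lay in intermediate clusters. The F test called 0 of these positions after adjustment.

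The pair called for SSCT F2/M lay in the Peg3 body, 22556 and 22517 bp inside the gene, beyond the end of the antisense transcript Peg3os. At chr7:6707863 the control F1 libraries had 72.2%, 66.7%, 44.8%, 75.0% and 29.8% and the SSCT F2/M libraries 0%, 56.2%, 0%, 30.8% and 0%, over 13 to 84 reads. In SSCT F2/M 3 of 5 libraries were at 0%, but the highest lay above 2 controls. The read-weighted difference was -33.6 points, with an exact permutation p of 0.0397 (n = 5 each). At chr7:6707902, its neighbour on the same strand, the means were 17.9% ± 25.8 and 56.2% ± 22.3, with a difference of -32.3 points and an exact permutation p of 0.0397. The control F0 libraries had 50.0%, 0% and 0% at chr7:6707863. In SSCT F2/P it ranged from 15.2% to 100% over 4 libraries. Under the heat map names the call had the opposite sign, since the libraries titled SSCT F2/M are the control F1 there.

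The pair called for SSCT F2/P lay in the Usp29 body, 51377 and 51385 bp past its start. At chr7:6781960 the control F1 libraries had 17%, 0%, 10.7%, 0% and 0%, and the SSCT F2/P libraries 27.4%, 61.4%, 0%, 78.6% and 40.0%. In SSCT F2/P 4 of 5 libraries lay above every control F1 library, and 1 was at 0%. The read-weighted difference was 34.2 points, the exact permutation p 0.0556 and the p of the F test across all positions 0.0153 (adjusted p = 0.621). At chr7:6781968, its neighbour, the means were 41.7% ± 26.6 and 9.65% ± 9.80, the difference 31.6 points and the exact permutation p 0.0317. The other cytosine of this CpG, chr7:6781967 on the plus strand, did not share the difference, with 26.1% ± 4.91 in SSCT F2/P and 19.1% ± 11.1 in control F1 (exact permutation p = 0.254, n = 5 each). Control F0 sperm, from older males, had 59.2%, 81.8% and 30.5% at chr7:6781968, within or above the SSCT F2/P range.

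**Figure D5:**
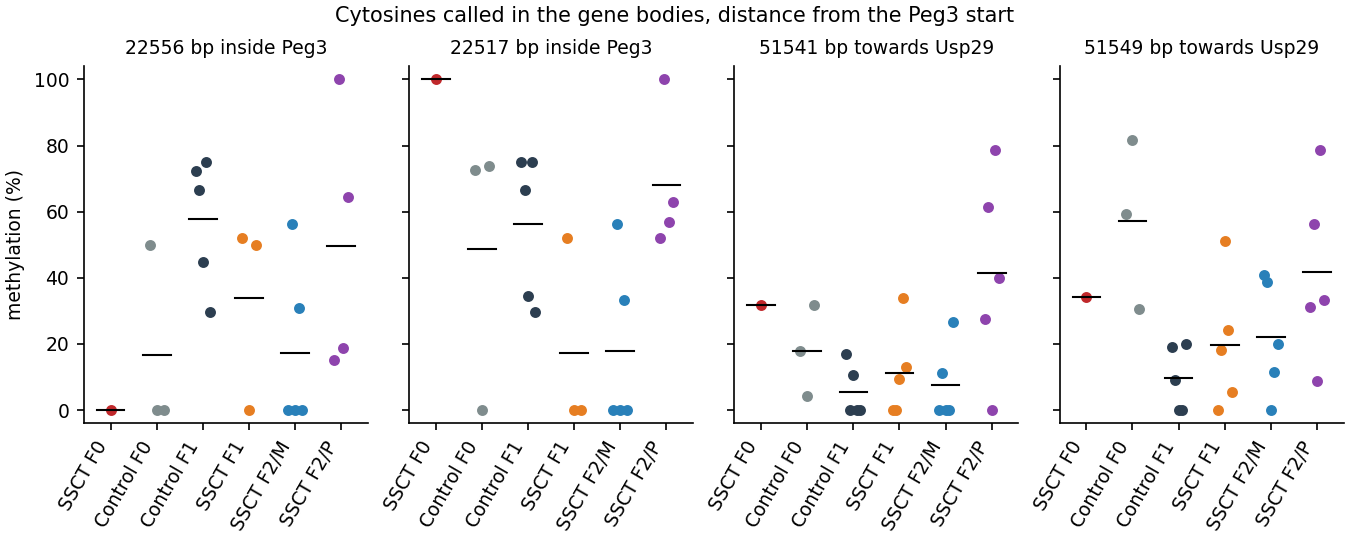
Methylation (percent) per library and group at the 4 cytosines called in the gene bodies, each titled with its distance from the Peg3 start. Points are libraries and lines group means; SSCT F2/M and control F1 overlap at both cytosines inside Peg3, and SSCT F2/P overlaps control F1 at both cytosines on the Usp29 side.

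Under the heat map names, SSCT F1 against control F1 gave 2 calls of 56 positions (0.404% of all positions) and 1 of 17 windows (0.368% of all windows) in the domain. One was again chr7:6781960, since the libraries titled SSCT F2/P are the SSCT F1 there, with 41.5% ± 30.4 against 7.56% ± 11.7. The other was chr7:6937174 in the Usp29 body, with 49.7% ± 12.5 against 77.2% ± 22.8 (exact permutation p = 0.0556, n = 5 each). Its 1000-bp window held that position alone. With F2/M and F2/P exchanged as well, SSCT F2/P against control F1 had the Peg3 body pair chr7:6707863 and chr7:6707902 as its calls (0.420% of all positions). At the first the levels were 57.7% ± 19.6 against 17.4% ± 25.5. For SSCT F2/M 0 positions were called (0.439% of all positions).

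Genes whose promoter level resembled that of the island over the libraries were listed as a description. Of 3762 genes with a promoter window (1000 bp either side of the start) that varied by at least 10 points, the 5 with the highest Pearson r were Zfp551 (r = 0.740 over 25 libraries), Dph7 (0.736 over 26), Desi1 (0.726 over 26), Eif4e2 (0.719 over 26) and Ccdc125 (0.710 over 26). Without the SSCT F0 libraries r was 0.806, 0.539, 0.552, 0.518 and 0.515 over 23 libraries. Zfp551 ranked first in both, and the others ranked 19 to 38 without SSCT F0. The points share their libraries and depths, and 437 genes had r above 0.5.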

How the data were processed

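Sperm DNA of 26 males was measured by RRBS. Per the submitters' processing notes in the labels, reads were handled with FastQC, Trim Galore (0.4.1) and Bismark (0.20.0) against GRCm38 (mm10) and read into methylKit (1.7.0). The deposited lists give for each cytosine of a CpG, strands apart, a methylated fraction and a read count of coverage, without replicates being pooled. Fraction times coverage gave whole reads at all positions (within 0.05 of a read beside the rounding of the fraction). Every listed position inside a RefSeq promoter window was a CpG of that build (279276 of 279276). Spike-in controls had 0.542% to 1.26% methylated reads (unmethylated control) and 98.2% to 98.9% (methylated control).

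Values here are shares of methylated reads over positions with at least 10 reads. After the filters and thresholds in the study's methods, DMCs and DMRs (1000-bp windows) were tested over the whole table with a likelihood-ratio test on pooled reads written for this work, after positions in the top 0.1% of coverage were left out, with Benjamini-Hochberg adjustment, an adjusted p below 0.01 and a difference above 25 points. That test treats reads as independent. The study used methylKit and its q-value, which were not run here, so counts of calls may differ from it. As an alternative, the statistic was divided by the Pearson dispersion (at least 1) and referred to an F distribution. Region values per library were compared with two-sided exact permutation tests, adjusted over 15 tests, and the 4 offspring sets with 100000 resamples. Positions named are every DMC, and the highest and lowest control mean per region (at least 5 control libraries). Loci listed for reference were H19, Rasgrf1, Meg3, Dlk1, Zim1, Zim2 and the maternally methylated promoters. Peg13, Nespas, Zim3 and Zfp264 were not analysed here as such loci. The tests were checked on simulated data in which reads varied by counting error only. That check therefore does not cover the spread between libraries. Python (3.11.15), NumPy (2.4.6), pandas (2.3.3), SciPy (1.17.1) and Matplotlib (3.10.9) were used.

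The members, lists and tests were chosen with earlier results of these data known. Groups come from the titles. Libraries of a group are separate samples of males. The permutation tests and the F test measure the spread between them, and the likelihood-ratio test on pooled reads does not. No pair of libraries agreed within sampling noise (smallest mean chi-square 5.94 over 325 pairs). Alternatives were coverage minimums of 5 and 20 reads, the upper limit of coverage, merged strands, means over positions, positions covered in every library, windows shifted by 500 bp, a difference above 10 points, the replicate number as a block, each library left out and both sets of heat map names.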

Additional observations from a re-analysis of the deposited data

Results flagged for a closer look

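In 2 of the 12 sets of 4 to 10 values examined for a value far from the others, the lowest island value stood apart, where chance gives about 1 in 20 sets. SSCT F1 replicate 3 had 0.270% methylated reads in the promoter island, against 10.2% to 13.6% in the other 4 SSCT F1 libraries. It had no covered read at the methylated pair of the Usp29 side, and without that pair the 5 libraries lay between 0.270% and 1.48%. SSCT F2/P replicate 1 had 1.31%, against 8.32% to 9.63% in the other 4. It covered the pair with 10 reads per cytosine, of which 0 were methylated at chr7:6731752 and 10 at chr7:6731775, and its island value without the pair was 0%.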

How the results depend on the processing

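After adjustment over 15 tests no region of the domain passed 0.05, as reported or under any alternative run. Each alternative replaced its own p among the 15 and kept the other reported ones. The smallest possible exact permutation p was 0.00794 with 5 against 5 libraries and 0.1 in F0. Neither could pass 0.05 after that adjustment, so in these comparisons the alternatives could not have changed the outcome. Only pooled SSCT F2, where the smallest possible exact permutation p was 0.000333, could have passed. Unadjusted, the exact permutation p of the Peg3 body was 0.0159 to 0.857 over the alternatives for SSCT F2/M (0.0317 as reported), 0.0317 to 0.960 for SSCT F1 (0.0556) and 0.00799 to 0.876 for pooled SSCT F2 (0.0559). The few positions that SSCT F0 replicate 3 covers leave 7 to test in F0. Without it F0 gave 11 DMCs and 4 DMRs (5.83% of all positions and 10.1% of all windows), and without SSCT F0 replicate 2 it gave 4 and 2. For each other library left out the share over all positions was not listed. Those counts show only how the calls moved. Leaving out 1 library at a time gave 2 to 11 DMCs and 1 to 4 DMRs for F0, 0 to 2 and 0 for SSCT F1, 0 to 1 and 0 for pooled SSCT F2, 2 to 4 and 0 to 1 for SSCT F2/M, and 0 to 3 and 0 for SSCT F2/P, where leaving out SSCT F2/P replicate 2 gave 0 DMCs. SSCT F1 gave 1 DMC without control F1 replicate 3 and 2 without SSCT F1 replicate 3. SSCT F2/M gave 4 DMCs and 1 DMR without SSCT F2/M replicate 5, and 1 DMR without SSCT F2/M replicate 2 or control F1 replicate 5. Pooled SSCT F2 gave 1 DMC without control F1 replicate 1 or 5, SSCT F2/P replicate 3 or SSCT F2/M replicate 3, 4 or 5. The island difference of SSCT F1 ran from -0.436 (without control F1 replicate 4) to 3.24 points, with -0.0986 without SSCT F1 replicate 5, and that of SSCT F2/P from -2.81 to 0.0831 points (without control F1 replicate 1), with 0.00611 without SSCT F2/P replicate 1.

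The F test gave 0 DMCs for F0, SSCT F2/M and SSCT F2/P and 0 DMRs for F0. A difference above 10 points gave 2 DMRs of 3 windows for F0 (20.3% of all windows), 8 DMCs of 49 and 2 DMRs of 16 for SSCT F1 (5.23% and 5.16% of all), 4 DMCs of 42 for pooled SSCT F2 (3.66%), 6 DMCs of 49 and 1 DMR of 18 for SSCT F2/M (5.01% and 5.02%) and 8 DMCs of 49 for SSCT F2/P (5.06%). A minimum of 20 reads gave 0 DMCs for SSCT F2/M and SSCT F2/P, with 25 positions left to test in each. A minimum of 5 gave 1 DMR for SSCT F2/M, and merged strands gave 1 DMC for SSCT F2/P. The shares over all positions were not listed for these settings. Heat map names gave 2 DMCs and 1 DMR for SSCT F1 under both versions (0.404% and 0.368% of all). They gave 0 DMCs for SSCT F2/P (0.439%), and with F2/M and F2/P exchanged 0 DMCs for SSCT F2/M (0.439%).

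Signs turned as follows, in points of SSCT minus control. In the island, means over positions gave -0.825 for SSCT F1 and 0.666 for SSCT F2/P. Positions covered in every library gave -0.284 for SSCT F1, 0.741 for pooled SSCT F2 and 1.01 for SSCT F2/M in the island, 0.332 for SSCT F1 in the Peg3 body, and 29.8 for F0 in the Usp29 body. The island without its methylated pair, chosen after seeing the data, gave -0.305 for SSCT F1, 0.929 for pooled SSCT F2, 0.825 for SSCT F2/M and 1.03 for SSCT F2/P. Heat map names gave 4.06 for pooled SSCT F2, 3.64 for SSCT F2/M and 4.48 for SSCT F2/P in the island (4.48 and 3.64 with F2/M and F2/P exchanged), 5.59 for SSCT F1, 6.16 for pooled SSCT F2, 11.4 for SSCT F2/M and 0.879 for SSCT F2/P in the Peg3 body (0.879 and 11.4 exchanged), and -1.30, -2.61, -4.51 and -0.720 in the same order in the Usp29 body (-0.720 and -4.51 exchanged). The heat map names exchange the libraries of a comparison, and the cause of the other changes was not tested.

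Same-numbered libraries did not deviate together (r between -0.0150 and 0.0149 over 30 offspring pairs, across 1000-bp windows), so numbers only name samples. With the replicate number as a block the domain had 2 DMCs for F0 and 0 for SSCT F1 and for pooled SSCT F2. It had 2 for SSCT F2/P and 2 for SSCT F2/M. The share over all positions was not listed for the block test, so its counts show only whether the calls moved. With that block the Peg3 body difference of SSCT F2/M had an exact p of 0.125.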
